A study of Mus musculus with 8 samples.

Results

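The genes described are 10 of the prostaglandin and leukotriene pathway: Ptgs1, Ptgs2, Ptges, Hpgds, Tbxas1, Alox5, Alox5ap, Lta4h, Ltc4s and Ptger4. They were chosen by name, with earlier results of these data known. Each was read from the brightest probe set that the platform's gene table assigns to that gene alone. Of the 10 genes, 9 had such a probe set, each exactly 1, out of 19938 genes with one in the whole series; Ptgs1 had none and is not analysed here. Dendritic cells were sorted from 4 mice on Affymetrix mogene 1.0 ST arrays, which gave 8 arrays: 4 of bone marrow cells labelled myeloid dendritic cells and 4 of spleen cells labelled classical dendritic cells. All mice were 8 weeks old, with no treatment named in the labels, and of the genotype CX3CR1-gfp/+, so both groups carry the reporter allele and neither is wild type. Each mouse gave 1 array of each tissue. The sources used here do not give the sorting gates. H2-Ab1 and Itgax, genes of dendritic cells, were bright in all 8 arrays. Of 10 classical dendritic cell markers, however, 6 were lower in bone marrow, Itgax among them, and none was higher. By the same test 9.20% of all genes were lower. Many markers of neutrophils, monocytes and macrophages were higher in the marrow arrays (values at the end).

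Prostaglandins and leukotrienes are short-range lipid signals made from arachidonic acid, which phospholipases release from membranes. Cyclooxygenases (Ptgs1, constitutive in most cells, and Ptgs2, inducible) turn it into an intermediate that terminal synthases convert into the separate prostanoids: Ptges makes prostaglandin E, Hpgds prostaglandin D and Tbxas1 thromboxane. On the other branch, the lipoxygenase Alox5, helped by the membrane protein Alox5ap, makes an epoxide that Lta4h turns into a leukotriene attracting neutrophils and Ltc4s turns into the cysteinyl leukotrienes. In dendritic cells, prostaglandin E signals through receptors that include Ptger4 and is known for effects on maturation and migration, and cysteinyl leukotrienes for effects on migration to lymph nodes.

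Promoter sequences of 3 of these genes are shown because their levels differed most between the tissues and because they carry different short motifs. Each runs from 250 bases before to 30 bases after the annotated start, in build GRCm38.p6 from RefSeq, written 5′ to 3′ along the gene's strand. RefSeq's table held such a window for 9 of the 10 genes, all but Alox5ap. Capitals mark every match, on either strand, to 1 of 6 letter patterns: TATAAA (the TATA box), CACGTG (an E-box), TGACG (the half-site of the cAMP response element), TTGCGCAA (a C/EBP palindrome), GAGGAA (the core of the site for PU.1, a myeloid transcription factor) and GGGCGG (a GC box). Neighbouring or overlapping matches form 1 run of capitals.
Ptgs2, chr1:150099781-150100060, plus strand: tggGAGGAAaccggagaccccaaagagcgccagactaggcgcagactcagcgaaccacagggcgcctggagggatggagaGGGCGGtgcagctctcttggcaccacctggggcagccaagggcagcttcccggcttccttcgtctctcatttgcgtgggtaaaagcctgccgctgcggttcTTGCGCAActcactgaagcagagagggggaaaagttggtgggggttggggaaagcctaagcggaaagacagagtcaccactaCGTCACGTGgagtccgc
Tbxas1, chr6:38918736-38919015, plus strand: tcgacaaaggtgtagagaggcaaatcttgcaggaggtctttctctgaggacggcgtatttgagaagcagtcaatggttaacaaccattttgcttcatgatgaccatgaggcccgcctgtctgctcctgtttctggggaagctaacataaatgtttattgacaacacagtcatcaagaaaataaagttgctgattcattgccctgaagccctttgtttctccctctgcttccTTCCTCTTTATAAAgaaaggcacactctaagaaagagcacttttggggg
Alox5, chr6:116461149-116461428, minus strand: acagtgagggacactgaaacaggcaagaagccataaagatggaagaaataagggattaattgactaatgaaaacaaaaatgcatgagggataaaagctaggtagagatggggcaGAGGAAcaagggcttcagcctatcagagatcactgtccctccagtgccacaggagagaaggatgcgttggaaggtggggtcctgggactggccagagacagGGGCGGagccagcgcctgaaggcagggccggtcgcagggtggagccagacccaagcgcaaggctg

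The Ptgs2 window held the C/EBP palindrome, which 0.180% of 32817 windows of the same length held, and an E-box (6.79% of windows) overlapping a cAMP response element half-site (19.9%) just after the annotated start. It also held a GC box (34.7%) and the PU.1 core (26.0%). Of the 9 windows, 8 held the PU.1 core, all but that of Ptger4, which held GC boxes. Tbxas1 had the TATA box pattern (13.1%) and Alox5 a GC box. These matches describe letters, and no binding was measured here.

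Of the 9 measured genes, 3 were higher in bone marrow cells (Tbxas1, Alox5 and Hpgds) and 2 lower (Ptgs2 and Lta4h), while Ptges, Alox5ap, Ltc4s and Ptger4 did not pass the test. The test was limma on log2 intensities across all genes, with a Benjamini-Hochberg adjusted p of 0.05 as the threshold. By it, 18.5% of all 19938 genes were called, 9.26% higher and 9.20% lower in bone marrow. The count of 5 of 9 is given as a description beside that background. The groups did not overlap in 5 of the 9 genes, against 20.6% of all genes. These are the 5 called genes, so the lack of overlap is not a separate result. The median log2 difference (bone marrow minus spleen) was 0.19 over the 9 genes and -0.01 over all genes. An intensity is compared only within a gene, since probe sets differ in brightness, and no detection call came with the values. The median intensity over all probe sets lay between 125 and 135 in the 8 arrays, and Ptges and Ltc4s lay below it in every array. Ptgs2 in bone marrow (119 to 202) and Alox5 in spleen (104 to 150) also reached down to about this level, so their fold values rest on a dim group.

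**Figure D1:**
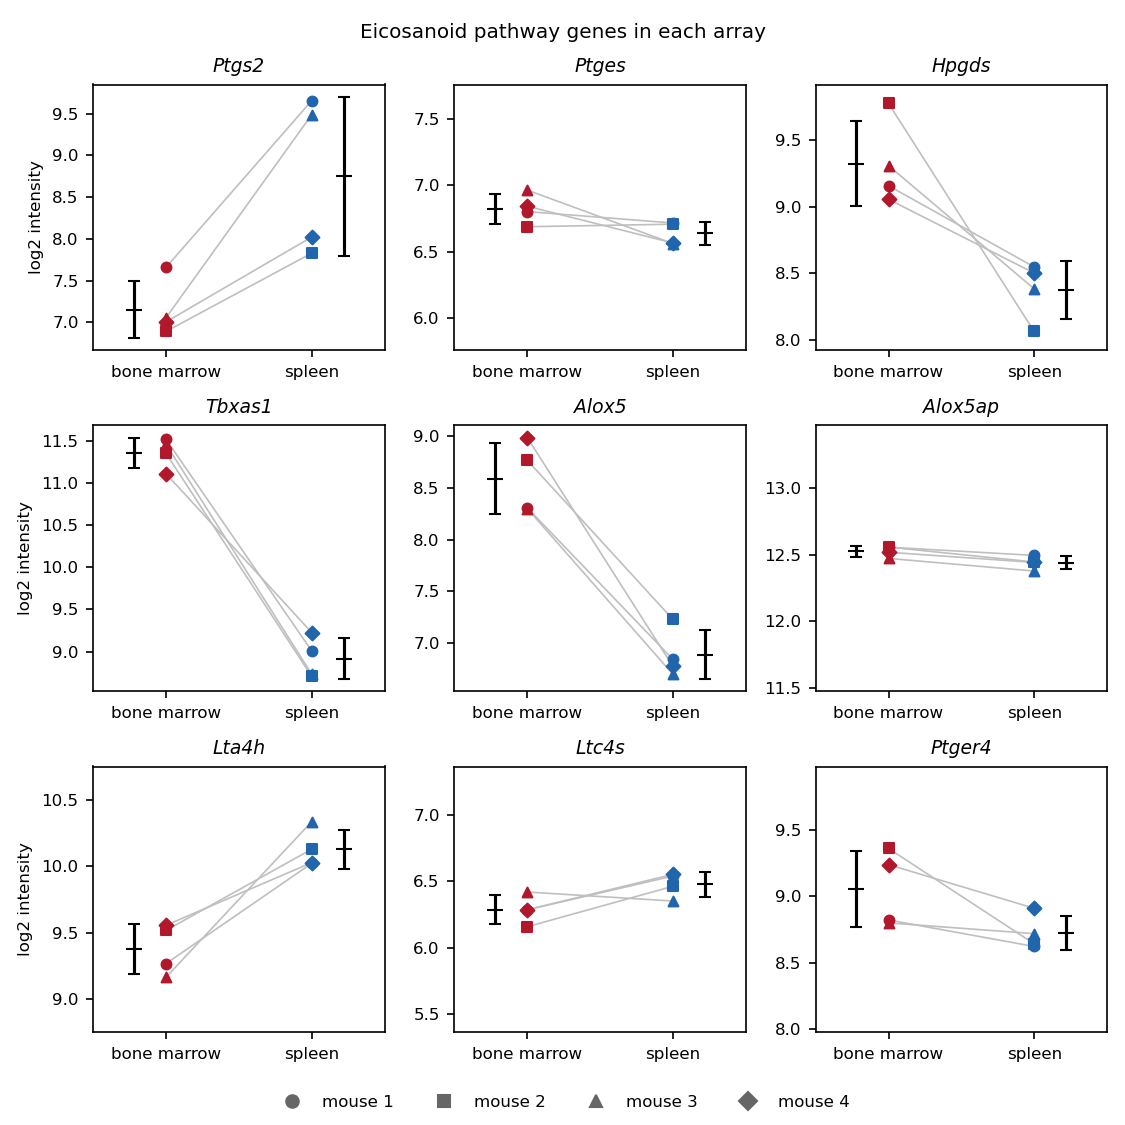
Log2 intensity of each measured gene in bone marrow (red) and spleen (blue), with 1 point per array, grey lines joining the arrays of a mouse, and black marks for the mean and SD of 4 arrays. Every panel spans at least 2 log2 units. Tbxas1, Alox5 and Hpgds lie higher in bone marrow in all 4 mice, Ptgs2 and Lta4h lie lower in all 4, and Ptgs2 in spleen falls into a high pair (mice 1 and 3) and a low pair.

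Ptgs2, the inducible cyclooxygenase, was lower in bone marrow and varied widely among the spleen arrays. Its intensity was 202, 119, 133 and 129 in the marrow of mice 1 to 4 and 807, 228, 718 and 260 in their spleens. The lowest spleen array lay above the highest bone marrow array, so the groups did not overlap, but spleen replicates 1 and 3 were far brighter than spleen replicates 2 and 4. The mean difference was -1.60 in log2 units (± 0.36 SE, 4 arrays a group, 95% interval -2.38 to -0.82, limma adjusted p = 0.0065), or 3.02-fold higher in spleen. Within each mouse, bone marrow minus spleen was -1.997, -0.94, -2.43 and -1.02 for mice 1 to 4. The SD of the log2 intensity was 0.96 in spleen and 0.34 in bone marrow, where the median gene had 0.13 and 0.12. A spleen SD at least as large was found in 15 of 19938 genes, Ptgs2 included. Because these are bulk samples of sorted cells, fewer cells that express a gene and less RNA per cell cannot be told apart, here or for any gene below.

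Several, but not all, heat shock and immediate early genes, which respond to handling and stimulation within minutes to hours, were brighter in the same spleen arrays as Ptgs2. These lists were drawn up after the Ptgs2 values had been seen. Hspa1a, an inducible chaperone, stood at 3994, 1503, 4592 and 836 in their spleens and at 3402, 1819, 3982 and 1209 in the marrow of mice 1 to 4. It was thus brighter in mice 1 and 3 in both tissues. Ptgs2 had this order too, but in bone marrow mouse 3 (133) barely exceeded mouse 4 (129). The median over all probe sets had the same marrow order, at 135, 127, 133 and 125 for mice 1 to 4. Fosb, a subunit of the AP-1 transcription factor, stood at 1234, 498, 1221 and 435 in spleen and at 618, 825, 643 and 866 in bone marrow, where mice 1 and 3 were the dimmer pair. Spleen replicates 1 and 3 both exceeded replicates 2 and 4 in 9 of 14 immediate early genes and 5 of 7 heat shock genes, and in 15.3% of all genes; Atf3, Nr4a1, Zfp36 and Hspe1 were among those that did not show it. The same order held in bone marrow for 1 of the 14 and 3 of the 7, and for 34.1% of all genes. The opposite order held in bone marrow for 6 of the 14, 1 of the 7 and 23.2% of all genes. The part of these genes in the Ptgs2 spread was not tested. With only mice 1 and 3, the log2 difference of Ptgs2 was -2.21 (limma adjusted p = 0.00021). With only mice 2 and 4 it was -0.98 (limma adjusted p = 0.0032). This pairing was chosen after seeing the data and follows the Ptgs2 spleen values, so these adjusted p are not independent of that choice. The direction could not differ between the pairs, because the groups did not overlap.

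**Figure D2:**
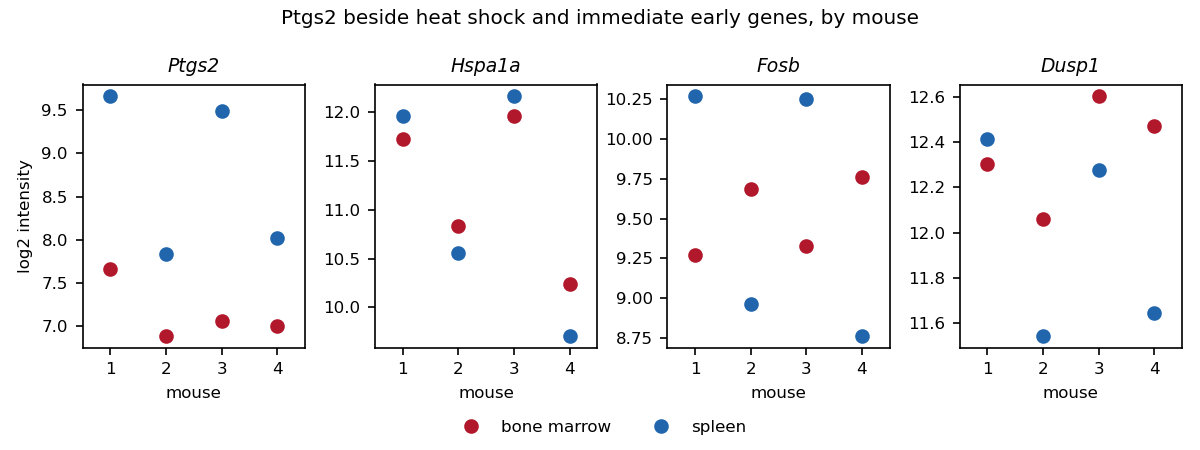
Log2 intensity of Ptgs2, Hspa1a, Fosb and Dusp1 (a phosphatase of MAP kinases induced as an immediate early gene) in each mouse, bone marrow in red and spleen in blue, 1 point per array. In spleen all 4 genes are higher in mice 1 and 3 than in mice 2 and 4. In bone marrow this holds for Hspa1a and, with mouse 3 barely above mouse 4, for Ptgs2, and not for Fosb or Dusp1.

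The genes with a profile nearest to that of Ptgs2 were Cd3g, Ccr6, Grpr, Septin1 and Fcmr, by the root mean square difference over the 8 arrays after each gene was centred on its mean (from 0.45 to 0.50 log2 units). In all 5 the groups did not overlap, with spleen the brighter, against 20.6% of all genes not overlapping in either direction. Ptgs2 has this pattern and the 5 were chosen for likeness to it, so sharing it is not a separate result. Cd3g, a chain of the T cell receptor complex, stood at 211, 113, 185 and 89.2 in their spleens and ranged from 51.1 to 87.2 over the marrow arrays. Ccr6, a chemokine receptor, stood at 352, 223, 296 and 252 in spleen. Of the 7 measured T cell and NK cell markers, 4 were lower and none higher in bone marrow, against 9.20% and 9.26% of all genes. The summed intensity of these markers was 926, 753, 893 and 791 in the spleens of mice 1 to 4 and 537 to 672 in bone marrow. Spleen replicates 1 and 3 had the highest sums, but Cd3g, chosen above for its likeness to Ptgs2, is in this list. Cd3d had the same spleen order, and Gzma (79.2, 96.0, 78.0 and 119) and Klrb1c (33.7, 37.7, 30.6 and 39.1) had the opposite one. The part of these cells in the Ptgs2 values was not tested.

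**Figure D3:**
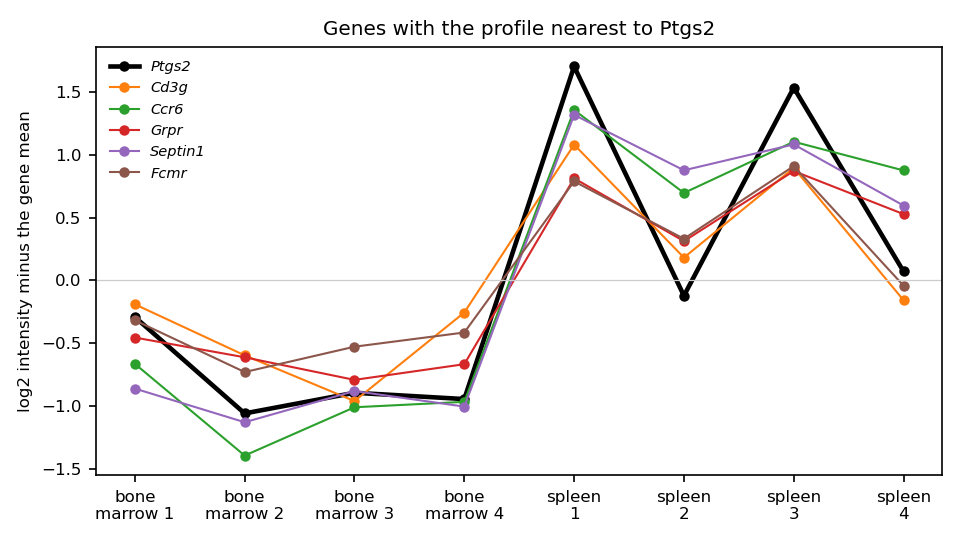
Log2 intensity minus the gene's own mean in the 8 arrays, for Ptgs2 (black) and the 5 genes nearest to it; lines only join the points of a gene. Ptgs2 shows the widest swing. All 6 genes are higher in spleen replicates 1 and 3 than in replicates 2 and 4, an order that the choice by likeness to Ptgs2 favours.

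Of the terminal prostanoid synthases, Tbxas1 and Hpgds were higher in bone marrow and Ptges did not pass the test. Tbxas1, thromboxane synthase, stood at 2923, 2604, 2808 and 2206 in the marrow of mice 1 to 4 and at 515, 417, 425 and 598 in spleen. Every bone marrow array was well above every spleen array, and mouse 4 had both the lowest bone marrow and the highest spleen value. The log2 difference was 2.44 ± 0.13 SE (n = 4 per group, limma adjusted p = 2.7e-08), a 5.42-fold higher level. Macrophages, monocytes and platelets also express Tbxas1. Of 7 measured platelet markers, 1 was higher in bone marrow and none lower, against 18.5% of all genes called. Their summed intensities were 1342 to 3543 in bone marrow and 1140 to 3159 in spleen. The higher one was Pf4, a platelet chemokine, at 529, 1530, 989 and 302 in the marrow and 65.9, 90.2, 81.5 and 575 in the spleen (5.43-fold, limma adjusted p = 0.014). Ppbp, another platelet chemokine, stood at 1233 in bone marrow replicate 3 and 1280 in spleen replicate 4, while the other 6 arrays ranged from 99.6 to 160. Without those 2 arrays the difference of Tbxas1 was 2.51 (limma adjusted p = 1.9e-07), but Pf4 remained brighter in the marrow arrays kept. The part of platelets, monocytes and macrophages in the Tbxas1 difference was not tested.

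Hpgds, the haematopoietic prostaglandin D synthase, stood at 571, 877, 634 and 532 in the marrow of mice 1 to 4 and at 374, 267, 334 and 362 in spleen. Mouse 2 had the highest bone marrow and the lowest spleen value, and the groups did not overlap. The log2 difference was 0.95 ± 0.15 SE (n = 4 per group, limma adjusted p = 0.00049), or 1.93-fold higher in bone marrow. Mast cells, eosinophils and some macrophages are known for this enzyme. Bone marrow replicate 2 also had the highest summed intensity of the macrophage markers, 37173 against 26532 to 32708 in the other bone marrow arrays. By the test, 9.26% of all genes were higher in bone marrow and 9.20% lower. Of 10 basophil and mast cell markers, 6 were higher and 1 lower. Among them Mcpt8, a basophil protease, was 4.99-fold higher and Prss34, another, 3.42-fold higher, while the mast cell tryptase Tpsb2 ranged from 119 to 144 over marrow and from 124 to 132 over spleen arrays. Of 6 measured eosinophil markers, 3 passed the test, all of them higher in bone marrow. Prg2, an eosinophil granule gene, was brightest in bone marrow replicate 3 at 1607. Ccr3, an eosinophil chemokine receptor, did not pass the test (limma adjusted p = 0.068). It was brightest in replicate 2 at 670 against 152 to 180 in the other marrow arrays. Replicate 2 was instead the lowest marrow array for Prg2 (459) and Epx (75.9), also on the eosinophil list, and for Mcpt8 (149) and Prss34 (208). The part of these cells in the Hpgds difference was not tested.

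Ptges, the inducible prostaglandin E synthase, stood at 112, 103, 125 and 115 in bone marrow and at 105, 105, 94.5 and 94.7 in spleen. The groups overlapped, and the log2 difference was 0.19 with a 95% interval of 0.01 to 0.37 (limma adjusted p = 0.17).

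On the leukotriene branch, the enzyme that starts it and the enzyme that ends 1 arm of it differed in opposite directions. Alox5, the lipoxygenase that makes the first leukotriene, stood at 317, 436, 316 and 508 in the marrow of mice 1 to 4 and at 115, 150, 104 and 110 in spleen. Every bone marrow array lay far above every spleen array. The log2 difference was 1.71 ± 0.16 SE (n = 4 per group, limma adjusted p = 5.5e-06), or 3.26-fold higher. Lta4h, the hydrolase that forms leukotriene B, stood at 617, 734, 575 and 753 in bone marrow and at 1041, 1120, 1293 and 1045 in spleen. It was lower in bone marrow in all 4 mice, by -0.75 ± 0.11 SE in log2 units (4 arrays a group, limma adjusted p = 0.00022), or 1.68-fold higher in spleen. In bone marrow both genes were brighter in replicates 2 and 4 than in 1 and 3, as was Ptger4, an order shared by 23.2% of all genes.

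Alox5ap, the membrane partner that hands arachidonic acid to the lipoxygenase, did not pass the test and varied little. It stood at 6026, 6028, 5682 and 5867 in bone marrow and at 5773, 5577, 5321 and 5566 in spleen. The groups overlapped and the log2 difference was 0.09 with a 95% interval of -0.07 to 0.24 (limma adjusted p = 0.54), although the bone marrow array was the brighter in all 4 mice. Its SD of 0.04 in bone marrow and 0.05 in spleen was smaller than that of most genes (4.4% and 6.2% of genes lay below). Ltc4s, which joins glutathione to the epoxide to make the cysteinyl leukotrienes, stood at 78.0, 71.4, 85.6 and 78.1 in bone marrow and at 93.0, 88.2, 81.7 and 93.9 in spleen. The groups overlapped, with a log2 difference of -0.19 and a 95% interval of -0.37 to -0.01 (limma adjusted p = 0.16).

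Ptger4, a receptor of prostaglandin E that raises cyclic AMP, stood at 453, 658, 446 and 604 in the marrow of mice 1 to 4 and at 394, 400, 422 and 481 in spleen. Bone marrow replicates 2 and 4 lay above all spleen arrays, and replicates 1 and 3 lay among them. The log2 difference was 0.33 ± 0.13 SE (n = 4 per group, limma adjusted p = 0.11), with a 95% interval of 0.05 to 0.61. It passed the threshold without bone marrow replicate 3 (0.42, limma adjusted p = 0.049), without bone marrow replicate 3 and spleen replicate 4 together (0.48, limma adjusted p = 0.030), and with only mice 2 and 4 (0.52, limma adjusted p = 0.045).

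**Figure D4:**
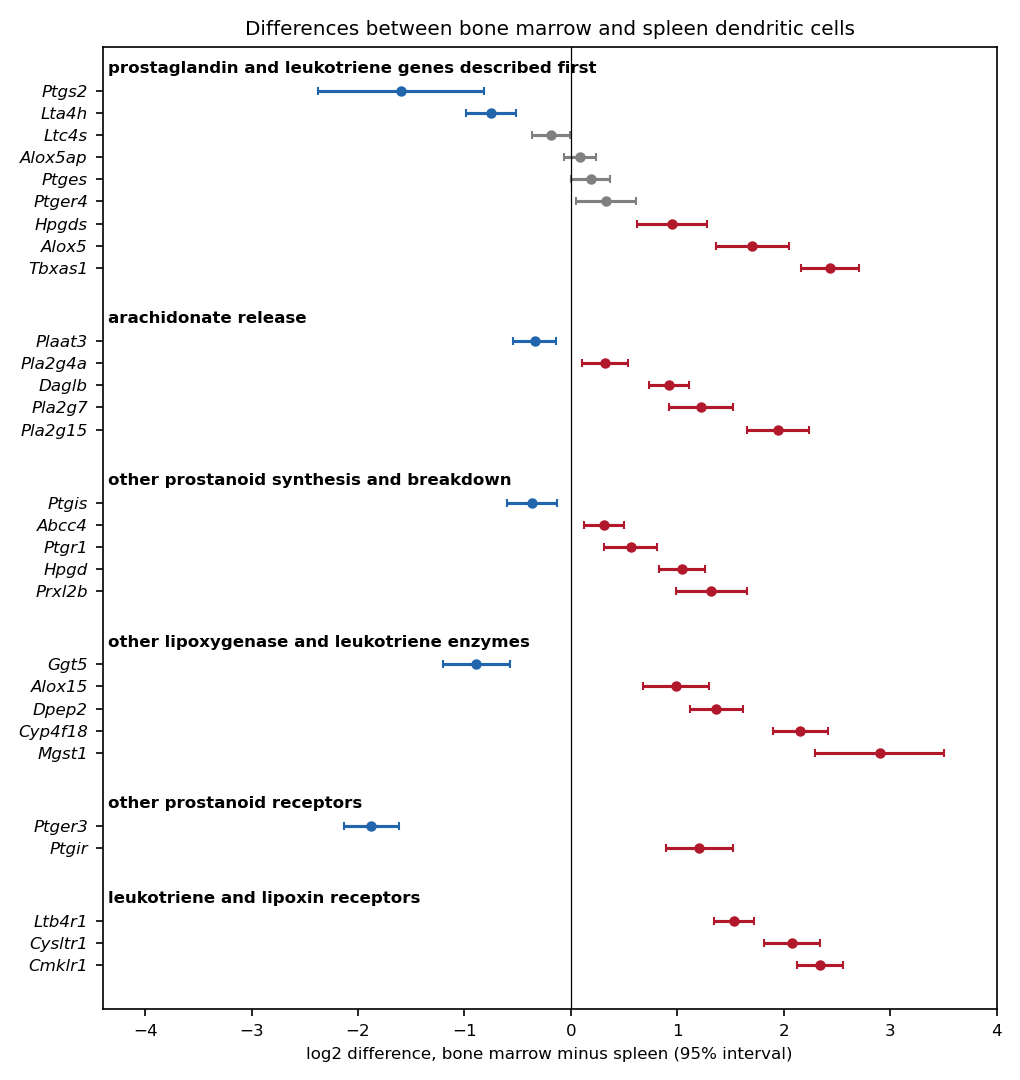
Log2 difference, bone marrow minus spleen, with its 95% interval from limma, for the 9 measured genes and for 20 other genes of the pathway named by rule. Red marks an adjusted p under 0.05 and higher in bone marrow, blue the same and lower, and grey not passing. Most of the other named genes lie to the right of 0; Ptgs2 has the widest interval.

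Of 56 other pathway genes listed, 52 were measured. In bone marrow 18 were higher and 4 lower, with a median log2 difference of 0.13. Over all genes 9.26% were higher and 9.20% lower, with a median of -0.01. The counts of this list and of its parts are given as descriptions beside that background and were not tested against it. Among genes of arachidonic acid release, 4 of 12 were higher and 1 lower. Pla2g15, a lysosomal phospholipase, rose from 253 in spleen to 974 in bone marrow (log2 difference 1.94 ± 0.13 SE, n = 4 per group, limma adjusted p = 3.4e-07). Pla2g7, which cleaves platelet-activating factor, was 2.33-fold higher, and the diacylglycerol lipase Daglb 1.90-fold higher. Pla2g4a, the cytosolic phospholipase that supplies both branches, had a geometric mean of 564 in bone marrow against 451 in spleen (0.32 ± 0.10, limma adjusted p = 0.040). That call ended without any single replicate but spleen replicate 3 (limma adjusted p from 0.058 to 0.12), and with background subtracted (0.062). Plaat3, another phospholipase, was lower (-0.34, limma adjusted p = 0.021), which did not hold without marrow array 1 or 3, or without spleen array 2 or 3 (limma adjusted p from 0.055 to 0.071) or with each array centred on its median (0.059).

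Genes that make other prostanoids or dispose of them were higher in 4 and lower in 1 of 11. Hpgd, the dehydrogenase that inactivates prostaglandins, stood at 4052, 5010, 3937 and 4797 in the marrow of mice 1 to 4 and at 2183, 1945, 2357 and 2115 in spleen. Every bone marrow array exceeded every spleen array (log2 difference 1.04 ± 0.10 SE, n = 4 per group, limma adjusted p = 6.0e-06). Prxl2b, a prostaglandin F synthase, was 2.50-fold higher. Ptgr1, a reductase that inactivates leukotriene B and prostaglandins, was 1.48-fold higher, and the prostaglandin exporter Abcc4 stood at 369 and 298. The Abcc4 call ended without marrow array 3 or without spleen array 2 or 4 (limma adjusted p from 0.052 to 0.0715). Ptgis, prostacyclin synthase, was lower (-0.36, limma adjusted p = 0.033), with overlapping groups; that call ended with the mouse as a replicate block (adjusted p = 0.0503), with background subtracted (limma adjusted p = 0.053) and without marrow array 2, 3 or 4, or without spleen array 1, 2 or 4 (limma adjusted p from 0.065 to 0.099).

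Of 16 other lipoxygenase and leukotriene enzymes and transporters, 6 were higher and 1 lower. Mgst1, a microsomal glutathione transferase, had the largest difference, from 41.1 in spleen to 307 in bone marrow (log2 difference 2.90 ± 0.28 SE, n = 4 per group, limma adjusted p = 6.9e-06), with bone marrow replicate 2 the brightest at 527. Cyp4f18, which oxidises leukotriene B, had a geometric mean of 1799 in bone marrow against 404 in spleen, 4.46-fold higher. Dpep2, a dipeptidase that trims cysteinyl leukotrienes, was 2.58-fold higher, and the lipoxygenase Alox15 1.99-fold higher. Ggt5, the transferase that acts on cysteinyl leukotrienes before the dipeptidase, was the 1 lower gene, at 346, 397, 364 and 417 in bone marrow and 815, 648, 887 and 522 in spleen (-0.89 ± 0.14, limma adjusted p = 0.00060). As for Ptgs2, spleen replicates 1 and 3 were the brighter pair, and with only mice 2 and 4 the Ggt5 difference was -0.51 (limma adjusted p = 0.054).

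Of 5 measured genes in the list of leukotriene and other lipid mediator receptors, 3 rose in bone marrow and none fell: the leukotriene receptors Ltb4r1 and Cysltr1, and Cmklr1, which is not a leukotriene receptor. Ltb4r1, the high-affinity receptor of leukotriene B, stood at 1241, 1434, 1229 and 1494 in bone marrow and at 475, 453, 445 and 488 in spleen (log2 difference 1.53 ± 0.09 SE, n = 4 per group, limma adjusted p = 5.9e-08). Cysltr1, a receptor of cysteinyl leukotrienes, stood at 1127, 966, 929 and 866 in bone marrow and at 200, 226, 210 and 291 in spleen (2.08 ± 0.12, limma adjusted p = 8.5e-08). Cmklr1, which binds chemerin and is reported to bind a resolvin, was 5.05-fold higher. Its spleen values, 59.7 to 81.0, lay below the median intensity over all probe sets, so this fold rests on a dim group. Of 8 prostanoid receptors beside Ptger4, 1 was higher and 1 lower, against 9.26% and 9.20% of all genes. Ptger3, a receptor of prostaglandin E that lowers cyclic AMP, stood at 74.7, 66.2, 56.4 and 85.4 in bone marrow and at 251, 265, 233 and 278 in spleen (-1.87 ± 0.12, limma adjusted p = 1.5e-07). Ptgir, the prostacyclin receptor, was 2.31-fold higher in bone marrow. The counts of the 2 receptor lists were not tested against each other.

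Several myeloid cells other than dendritic cells are known to express leukotriene genes, and many of their markers were higher in bone marrow. Over all genes 9.26% were higher in bone marrow and 9.20% lower. Of 13 neutrophil markers all were higher, with a summed intensity of 21835 to 29867 in bone marrow and 1870 to 2142 in spleen. Of 8 measured classical monocyte markers 7 were higher (23153 to 25838 against 8520 to 10059), of 12 macrophage markers 9 (26532 to 37173 against 5904 to 6798) and of 6 measured eosinophil markers 3 (1540 to 2690 against 532 to 629). Of 10 basophil and mast cell markers 6 were higher and 1, Kit, lower; Kit was 12.6-fold higher in spleen and made up most of that list's sum there. Of 10 classical dendritic cell markers none was higher and 6 were lower (53619 to 57251 against 59895 to 65112). Most of that sum came from H2-Ab1, Cd74 and H2-Aa (14678, 12578 and 12195 in spleen), which did not pass the test. The sums therefore say little of the dimmer markers. Btla was 2.67-fold, Zbtb46 2.43-fold and Flt3 2.07-fold higher in spleen. No marker was at 0 in any array, but without a detection call this does not show that every marker was detected. The part of these cells in the differences above was not tested.

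**Figure D5:**
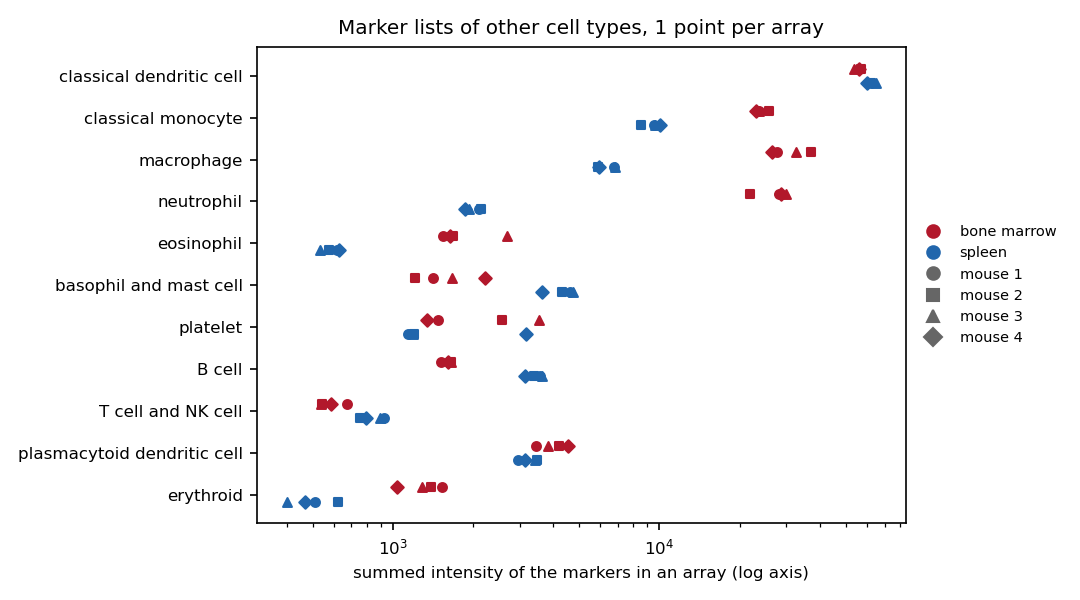
Summed intensity of each list of cell type markers in each array, on a log axis, bone marrow in red and spleen in blue, with 1 symbol per mouse. Neutrophil, macrophage, monocyte and eosinophil lists lie higher in bone marrow in every array, and the platelet list is highest in bone marrow replicate 3 and spleen replicate 4, with bone marrow replicate 2 next.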

How the data were processed

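Dendritic cells of 4 mice were measured on 8 Affymetrix arrays. The authors deposited 1 linear intensity for each probe set in each array; the submitters' processing notes name Expression Console 1.4, and how background, normalization and summarization were done is not given. Per the labels' protocols, cDNA came from very small RNA inputs, whose amplification can add spread. Arrays have no read depth, and 4 per group limits precision.

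Probe sets were named through the platform's 2016 annotation: of 35556, 21789 had 1 gene symbol, 1621 several and 12146 were not listed; 21698 matched RefSeq (GRCm38.p6). The brightest per gene was kept (19938 genes). Log2 intensities were tested with limma 3.58.1 (R 4.3.3; lmFit and eBayes), bone marrow minus spleen, with Benjamini-Hochberg adjustment over all genes. Intensities given as 1 value per tissue are geometric means. The scripted test was tried on simulated data.

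The mouse was not in the model. Same-numbered arrays share a mouse per the labels, and their deviations from group means correlated at 0.096, -0.088, -0.178 and -0.054, so the pairing was also fitted as a replicate block. Other alternatives were quantile normalization, median centring, the dimmest 40% of genes left out, probe sets averaged, an intensity trend, array weights, the 1st percentile subtracted (floor 1), single replicates left out and, chosen after seeing the data, subsets of mice or arrays.

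The genes and lists were chosen with earlier results of these data known. Named were the members, up to 4 called genes per pathway list and direction, and the 5 genes nearest to Ptgs2; other markers and stress genes were picked after their values were seen.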

Additional observations from a re-analysis of the deposited data

How the results depend on the processing

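The 5 calls among the 9 measured genes, 3 higher and 2 lower in bone marrow, held under all 19 alternatives that could be run for them, with the same direction; of 170 such comparisons over the 9 genes, 167 stayed on their side of the threshold and none reversed. The 3 others were Ptger4, which became called without bone marrow replicate 3 (0.42), without that array and spleen replicate 4 together (0.48) and with only mice 2 and 4 (0.52); leaving out single replicates gave log2 differences of 0.23 to 0.42. Ptgs2 ranged from -1.90 to -1.29 when single replicates were left out. Fitting the mouse as a replicate block gave Ptgs2 an adjusted p of 0.00026, and it changed the count of other pathway genes lower in bone marrow from 4 to 3, Ptgis being lost; no other call of a named gene changed. That count was 2 to 3 with single replicates left out and 2 with only mice 2 and 4, where 928 of all genes were lower in place of 1835; the cause was not tested beyond the smaller number of arrays. Ltc4s was among the dimmest genes and has no value with those left out. No detection call or background came with the values, so differences of dim genes such as Ptges and Ltc4s may be understated. The same holds for genes dim in 1 tissue, such as Ptgs2 in bone marrow and Alox5 in spleen. Other such genes were Ptger3 in bone marrow and Cmklr1, Mgst1 and Alox15 in spleen.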

Other observations

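Alox12, the platelet lipoxygenase, stood at 112 in bone marrow replicate 3 and 132 in spleen replicate 4 and between 53.5 and 69.9 in the other 6 arrays. Those 2 arrays also had the brightest Ppbp, whereas Pf4, another platelet gene, was brightest in bone marrow replicate 2. The gene was chosen after its values were seen, and its log2 difference between the tissues was -0.07 (limma adjusted p = 0.93).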
